A study of Homo sapiens with 18 samples.

Results

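The 38 genes described here are integrated stress response genes, chosen by symbol from a fixed list. They comprise ATF4 with 7 further regulators and targets, 5 enzymes of asparagine, proline and cysteine synthesis, 7 serine and one-carbon enzymes, 7 amino acid transporters and 11 cytosolic tRNA synthetases. All 38 were found among the 60609 gene identifiers of the count files, and all 38 were among the 20920 genes that passed the filter on low counts. In the integrated stress response, kinases that sense amino acid shortage, misfolded protein, haem shortage or double-stranded RNA phosphorylate the initiation factor eIF2. General translation then falls while translation of the ATF4 mRNA rises, so that ATF4 protein is set largely at translation and is not measured by these RNA libraries. ATF4 pairs with C/EBP proteins at a composite DNA element and drives genes that make, import and charge amino acids. In leukaemia cells these genes also supply serine, one-carbon units, asparagine and cystine for growth.

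The libraries came from OCI-AML1, an acute myeloid leukaemia line labelled as wild type, and measured polyadenylated RNA. Cells received AML874 for 8 h, SEL120-34A for 8 h or DMSO for 8 h, and likewise AML874 for 24 h, SEL120-34A for 24 h or DMSO for 24 h. Each of these 6 groups held 3 libraries. SEL120-34A inhibits CDK8 and CDK19, the Mediator kinases named in the title of the series, AML874 is known here only by its code name, DMSO is the solvent, and the labels give no dose. The questions were how the 38 genes differed between each compound and DMSO, between the compounds, and between the times.

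Each library held 98975944 to 142496541 counts in genes. Of 10 myeloid markers 8 reached 1 CPM, a count scaled to the size of its library, among them CD33, SPI1, PTPRC and CEBPA, while ANPEP and ELANE were at or near 0. The 6 erythroid markers summed to at most 0.0848 CPM. The 5 B cell markers summed to 0.547 to 1.86 CPM and the 7 T and NK cell markers to 3.49 to 6.46 CPM, with CD3D, CD3E, CD3G and MS4A1 at or near 0. Of the same lists, CD247 was at 2.11 to 3.59 CPM, NKG7 at 1.16 to 3.6 CPM and CD79A at 0.273 to 1.56 CPM. Replicate 1 of AML874 at 24 h stood apart in holding epithelial transcripts: the 8 epithelial and fibroblast markers summed to 0.256 to 2.01 CPM with AML874 at 24 h, against at most 0.247 CPM in the other groups, and EPCAM was at 0.425 CPM in that replicate. In bulk RNA, fewer cells of a type and less RNA per cell cannot be told apart. The labels do not say whether replicates were separate cultures, and every p-value therefore rests on the spread among these 18 libraries alone.

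The composite element named CARE has the core TGATG, any base, AA. It was searched on both strands of the RefSeq promoter windows of GRCh38.p14, which run from 250 bases before to 50 bases after a transcript start. Of the 38 genes, 32 had a window, and 14 of these held the core, or 43.8%, against 4.46% of all 27305 genes with a window. These shares are not like for like. The list was chosen as genes of the ATF4 pathway, and the 32 had 54 windows, against 35116 windows for all 27305 genes. SHMT2, YARS1, PSPH, SLC7A11, ALDH1L2 and PYCR1 had no window. The 6 sites below belong to the genes with the core that differed most from DMSO with AML874 at 24 h, each on the strand that reads TGATG, with the core in capitals:
CHAC1 (chr15:40953251-40953280, minus strand): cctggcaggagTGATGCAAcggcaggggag
SLC1A5 (chr19:46784893-46784922, minus strand): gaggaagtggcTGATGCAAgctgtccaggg
SLC3A2 (chr11:62881719-62881748, minus strand): ggagcTGATGTAAggagtcctgcacattac
SLC7A1 (chr13:29595663-29595692, minus strand): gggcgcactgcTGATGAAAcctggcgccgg
TARS1 (chr5:33440956-33440985, minus strand): gctggaccagcTGATGCAAtcgaaaggcgc
MARS1 (chr12:57488053-57488082, minus strand): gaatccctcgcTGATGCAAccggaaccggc

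The core lay 209 bases before a start in CHAC1, 97 before in SLC1A5 and 4 before in MARS1, and 37, 7 and 2 bases after a start in SLC3A2, SLC7A1 and TARS1. A match to these letters is a description and was not tested for binding. With AML874 at 24 h, 11 of the 14 genes with the core fell and 1 rose, and of the 18 genes with a window but no core 10 fell and 3 rose. The medians of those 2 sets were -0.16 and -0.18 on the log2 scale, and the difference between the sets was not tested.

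With DMSO the 38 transcripts covered a wide range. Levels compared between genes are in TPM, which is scaled by transcript length and library size. ATF4 was the most abundant, at 371 ± 2.90 TPM with DMSO at 8 h (SD, n = 3), followed by the glutamine transporter SLC1A5 at 230.3 ± 5.88 TPM and the mitochondrial serine hydroxymethyltransferase SHMT2 at 196 ± 0.733 TPM. The 11 synthetases lay between 41.1 ± 0.900 TPM for CARS1 and 188 ± 2.24 TPM for TARS1. At the low end were CHAC1, a glutathione-degrading enzyme, at 0.580 ± 0.167 TPM, and SLC7A11, the cystine importer, at 1.07 ± 0.0929 TPM. DDIT3, which encodes the stress factor CHOP, was at 5.67 ± 1.07 TPM. CTH, a cysteine-making enzyme, was at 3.45 ± 0.341 TPM, so that the enzymes, like the transporters, spanned low and high levels in these cells with solvent alone.

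**Figure D1:**
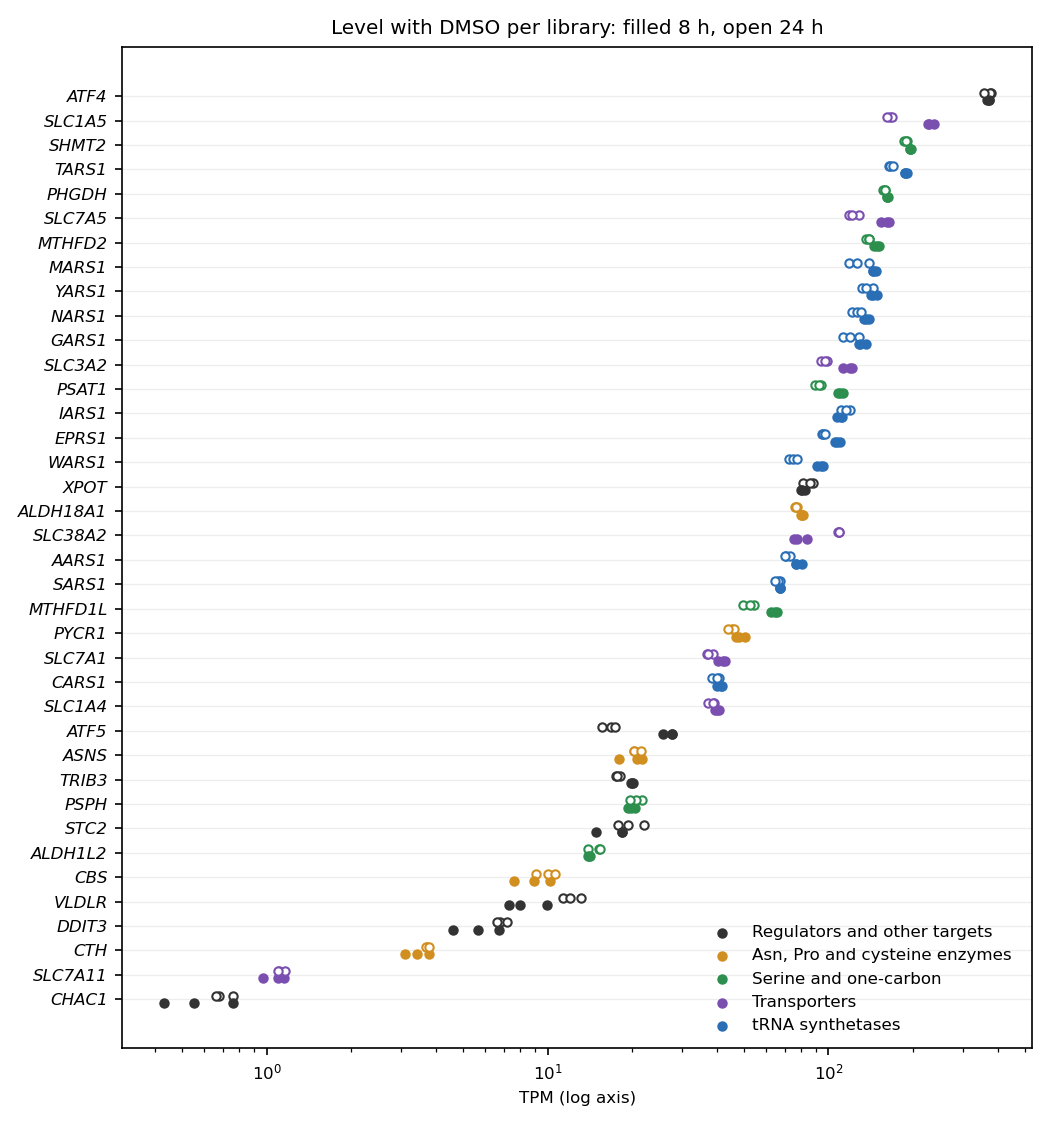
Level of each of the 38 genes with DMSO in TPM on a log axis, 1 point per library, with filled points for 8 h and open points for 24 h and colours for the 5 roles. ATF4 stands at the top near 371 TPM and CHAC1 at the bottom, below 1 TPM.

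At 8 h AML874 moved more of the 38 genes up than down, SEL120-34A moved more down than up, and at 24 h both compounds moved more down than up. With AML874 at 8 h, 19 of the 38 genes rose and 8 fell, and 39.6% of all tested genes changed (edgeR quasi-likelihood, Benjamini-Hochberg adjusted p under 0.05 over all genes tested, for this and every count below). With SEL120-34A at 8 h, 8 rose and 16 fell, where 45.1% of all tested genes changed. With AML874 at 24 h, 7 rose and 24 fell, where 46.8% of all tested genes changed. With SEL120-34A at 24 h, 8 rose and 21 fell, where 37.7% of all tested genes changed. By direction, 19.7% of all tested genes rose and 19.9% fell with AML874 at 8 h, 22.4% and 22.6% with SEL120-34A at 8 h, 23.1% and 23.7% with AML874 at 24 h, and 19.1% and 18.6% with SEL120-34A at 24 h. The share of the 38 genes that changed was between 63.2% and 81.6%, above that background in each comparison. The background holds many low genes: with a filter of 1 CPM in 3 libraries, 28 of the 37 members left changed with AML874 at 8 h, against 55.0% of all 13527 genes left, and 24 changed with SEL120-34A at 8 h, against 59.3%. At 24 h 30 changed with AML874, against 62.5%, and 26 with SEL120-34A, against 52.6%. For SEL120-34A at 8 h the members' share was thus near the background. The shares by role below are set against all tested genes, and this background of genes with 1 CPM in 3 libraries is higher. The changes were small. The median log2 fold changes of the 38 genes in the same order were 0.08, -0.02, -0.16 and -0.09, against 0.00, 0.00, 0.00 and 0.01 over all tested genes. All 4 comparisons use DMSO libraries of their own time, so the 2 compounds at a time share their controls.

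**Figure D2:**
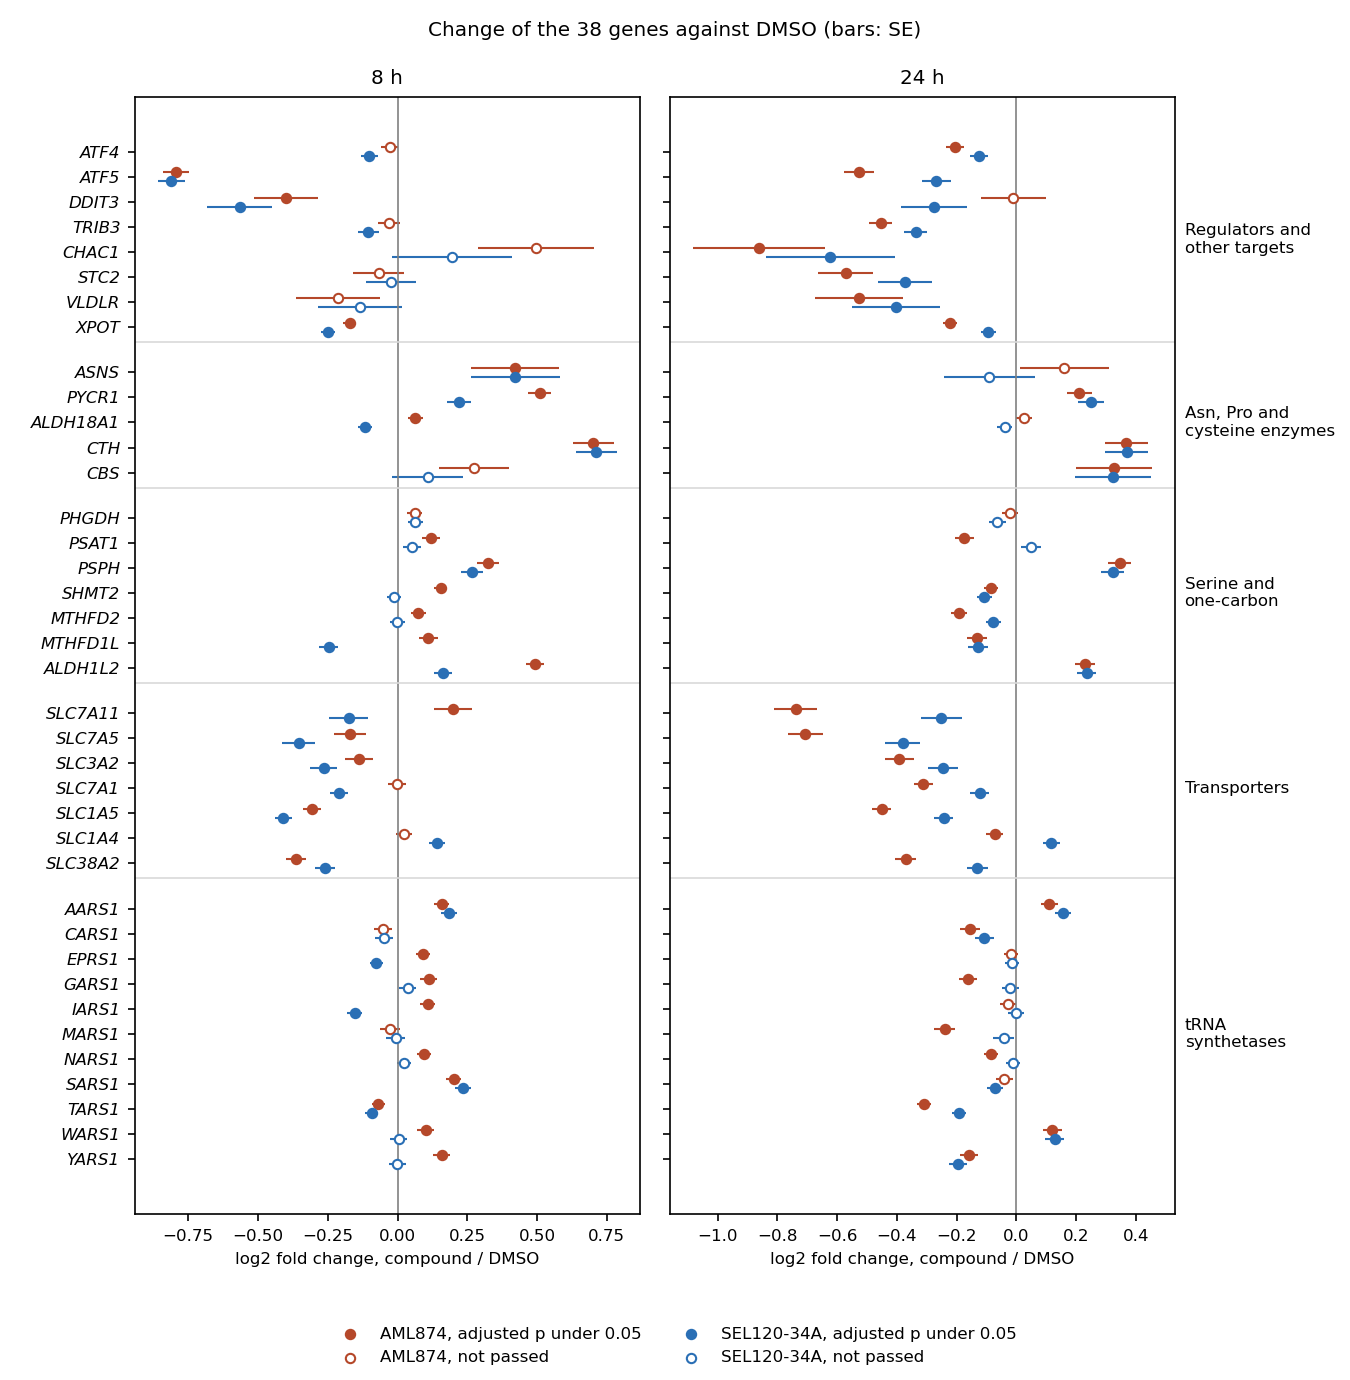
Log2 fold change of each of the 38 genes against DMSO at 8 h (left) and 24 h (right), with AML874 above SEL120-34A in each pair, bars for the SE and filled points for adjusted p under 0.05. The transporters and regulators lie mostly left of 0, while CTH, PYCR1, PSPH and ALDH1L2 lie right of 0 in all 4 comparisons.

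The 8 h counts depended on the libraries kept and on the scaling. Replicate 3 of DMSO at 8 h had the highest mean over 23 HIF targets, genes induced by hypoxia-inducible factors, at 5.84 log2 CPM. The other libraries of that time lay at 5.03 to 5.10 with AML874, 4.96 to 5.57 with SEL120-34A and 5.21 to 5.42 with DMSO. Without that library 11 members rose and 8 fell with AML874 at 8 h, and 7 rose and 15 fell with SEL120-34A. Leaving out any other library of the AML874 comparison also lowered its count, with 13 up and 6 down without replicate 1 of AML874. For SEL120-34A the same 7 and 15 came without replicate 2 of DMSO or replicate 3 of SEL120-34A. With the HIF mean as a covariate 12 rose and 10 fell with AML874 at 8 h. That mean was lower in every AML874 library than in every DMSO library at 8 h. The covariate and the compound effect thus cannot be fully told apart. With library totals in place of TMM scaling 22 rose and 5 fell with AML874 and 14 rose and 10 fell with SEL120-34A. The AML874 counts at 24 h moved little: 7 rose and 23 fell without the library that held epithelial transcripts. With SEL120-34A at 24 h 7 rose and 17 fell without replicate 1 of DMSO, and likewise without replicate 3 of SEL120-34A.

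ATF4 itself changed little. It encodes the bZIP transcription factor of the pathway (ENSG00000128272.14, GRCh38 chromosome 22, 39519695 to 39522685). At 8 h ATF4 was at 388, 384 and 407 CPM with AML874 and 376, 361 and 384 CPM with SEL120-34A, against 406, 396 and 401 CPM with DMSO. The SEL120-34A libraries lay below all DMSO libraries and the AML874 libraries overlapped them. At 24 h it was at 346, 328 and 325 CPM with AML874 and 348, 359 and 351 CPM with SEL120-34A, against 403, 382 and 367 CPM with DMSO, and every treated library lay below every DMSO library. The log2 fold change (± SE) was -0.03 ± 0.03 with AML874 at 8 h, which did not pass (edgeR quasi-likelihood, Benjamini-Hochberg adjusted p = 0.498, 95% interval -0.09 to 0.03). It was -0.10 ± 0.03 with SEL120-34A at 8 h, -0.21 ± 0.03 with AML874 at 24 h (adjusted p = 8.62e-07) and -0.12 ± 0.03 with SEL120-34A at 24 h. With library totals alone the 8 h fall with SEL120-34A was -0.03 and did not pass (adjusted p = 0.303).

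Among the 8 regulators and other targets, ATF4 included, 0 rose in any of the 4 comparisons with DMSO by edgeR, and at an unadjusted p under 0.05 only CHAC1 with AML874 at 8 h was higher. With AML874 3 fell at 8 h and 7 at 24 h, and with SEL120-34A 5 fell at 8 h and all 8 at 24 h, the last count being 5 without replicate 1 of DMSO or replicate 3 of SEL120-34A. In that order 37.5%, 87.5%, 62.5% and 100% of the 8 changed, against 39.6%, 46.8%, 45.1% and 37.7% of all tested genes. The share with AML874 at 8 h was thus near the background. With library totals alone 3 fell with SEL120-34A at 8 h. ATF5, an ATF4-related bZIP factor also under translational control, moved most at 8 h. It was at 20.8, 22.4 and 21.0 CPM with AML874 and 21.4, 19.5 and 22.5 CPM with SEL120-34A, against 38.5, 37.9 and 34.8 CPM with DMSO, and at 24 h at 15.1, 15.1 and 15.8 CPM with AML874 and 18.6, 17.6 and 18.8 CPM with SEL120-34A, against 20.9, 22.3 and 23.0 CPM with DMSO. No treated library reached a DMSO library of its time, and the fall was wider at 8 h, when the DMSO level was also higher. Its log2 fold changes were -0.79 ± 0.05 under AML874 and -0.81 ± 0.05 under SEL120-34A at 8 h (adjusted p = 3.35e-15 and 1.57e-15), and -0.53 ± 0.05 and -0.27 ± 0.05 at 24 h.

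DDIT3 encodes CHOP, which ATF4 induces under lasting stress. At 8 h it was at 2.05, 2.49 and 2.07 CPM with AML874 and 1.80, 2.23 and 1.85 CPM with SEL120-34A, against 2.80, 2.40 and 3.54 CPM with DMSO. The SEL120-34A libraries were all below DMSO, and 1 AML874 library overlapped. At 24 h DDIT3 was at 3.44, 3.17 and 2.97 CPM with AML874 and 2.85, 2.60 and 2.54 CPM with SEL120-34A, against 3.23, 3.29 and 3.14 CPM with DMSO, with the SEL120-34A libraries again lowest. The fall was -0.40 ± 0.11 under AML874 and -0.57 ± 0.12 under SEL120-34A at 8 h. At 24 h it was -0.27 ± 0.11 with SEL120-34A (adjusted p = 0.0467), a call lost without replicate 2 or 3 of SEL120-34A (adjusted p = 0.103 and 0.155) or any 1 DMSO library (adjusted p = 0.0634 to 0.101), and -0.01 ± 0.11 with AML874, which did not pass (95% interval -0.23 to 0.21). The AML874 call at 8 h was lost without replicate 3 of DMSO (adjusted p = 0.0911). DDIT3 overlaps MARS1 on the opposite strand, so counts that ignore strand mix the pair, and with those the 24 h fall with SEL120-34A did not pass (adjusted p = 0.352).

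The feedback and secreted targets moved at 24 h. TRIB3, a pseudokinase that restrains ATF4 and CHOP, was at 17.7, 18.0 and 18.8 CPM with AML874 and 20.2, 18.7 and 20.1 CPM with SEL120-34A, against 25.2, 25.1 and 24.3 CPM with DMSO at 24 h, with every treated library below DMSO. Its log2 fold change was -0.45 ± 0.04 under AML874 and -0.34 ± 0.04 under SEL120-34A at 24 h, and -0.03 ± 0.04 and -0.10 ± 0.04 at 8 h, where SEL120-34A passed and AML874 did not (adjusted p = 0.0239 and 0.567). CHAC1 was low throughout: at 24 h it was at 0.501, 0.324 and 0.357 CPM with AML874 and 0.574, 0.492 and 0.352 CPM with SEL120-34A, against 0.812, 0.684 and 0.668 CPM with DMSO, and at 8 h at 0.999, 0.915 and 0.641 CPM with AML874 and 0.785, 0.715 and 0.587 CPM with SEL120-34A, against 0.614, 0.445 and 0.785 CPM with DMSO. The treated libraries were below DMSO at 24 h and overlapped at 8 h. At 8 h the value with AML874 was 0.49 ± 0.21 (adjusted p = 0.0575), which passed as a rise in 7 of the alternatives, among them without replicate 3 of DMSO (0.70, adjusted p = 0.0165) and without replicate 3 of AML874 (0.64, adjusted p = 0.0205). At 24 h it fell, at -0.86 ± 0.22 on the log2 scale with AML874 (adjusted p = 0.00143) and -0.62 ± 0.22 with SEL120-34A (adjusted p = 0.0212), the second lost without replicate 1 of DMSO (adjusted p = 0.0915) or replicate 3 of SEL120-34A (adjusted p = 0.17).

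STC2, a secreted glycoprotein, was at 32.6, 30.8 and 28.6 CPM with AML874 and 33.9, 39.0 and 32.9 CPM with SEL120-34A, against 49.6, 42.1 and 45.1 CPM with DMSO at 24 h. VLDLR, a lipoprotein receptor, was at 27.0, 24.9 and 21.7 CPM with AML874 and 24.6, 30.8 and 25.1 CPM with SEL120-34A, against 38.9, 33.0 and 34.0 CPM with DMSO at 24 h. In both genes every treated library lay below every DMSO library. STC2 had -0.57 ± 0.09 with AML874 and -0.37 ± 0.09 with SEL120-34A on the log2 scale, and VLDLR -0.53 ± 0.15 and -0.40 ± 0.15. The VLDLR fall with SEL120-34A (adjusted p = 0.0465) was lost without any 1 DMSO library (adjusted p = 0.0555 to 0.152) and without replicate 1 or 3 of SEL120-34A (adjusted p = 0.143 and 0.14). At 8 h neither passed. With the HIF mean as a covariate both passed as rises with AML874, STC2 by 0.13 and VLDLR by 0.14. That mean was itself lower with AML874, and the observed levels were not higher. At 8 h STC2 averaged 41.6 CPM with AML874 and 43.7 CPM with DMSO, and VLDLR 21.4 and 24.8 CPM.

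XPOT, which exports tRNA from the nucleus, fell in all 4 comparisons. At 8 h it was at 300.5, 302 and 302 CPM with AML874 and 287, 286 and 285 CPM with SEL120-34A, against 341, 343 and 334 CPM with DMSO, and at 24 h at 273, 288 and 285 CPM with AML874 and 316, 298 and 310.5 CPM with SEL120-34A, against 327, 334 and 326 CPM with DMSO. The groups did not overlap at either time. The log2 fold changes were -0.17 ± 0.02 under AML874 and -0.25 ± 0.02 under SEL120-34A at 8 h, and -0.22 ± 0.02 and -0.09 ± 0.02 at 24 h (largest adjusted p = 0.0022).

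Among the enzymes of asparagine, proline and cysteine synthesis, CTH and PYCR1 rose in all 4 comparisons. Of 5, 4 rose and 0 fell with AML874 at 8 h, 3 rose and 1 fell with SEL120-34A at 8 h, and 3 rose and 0 fell with either compound at 24 h. The share that changed was 80% with either compound at 8 h, against 39.6% and 45.1% of all tested genes. At 24 h it was 60% with either, against 46.8% and 37.7%. Without replicate 2 or 3 of AML874, or replicate 2 or 3 of DMSO, 2 rose with AML874 at 8 h. These counts hold ASNS at 8 h and CBS at 24 h as gene counts, and with RSEM expected counts 2 rose with AML874 at 24 h. CTH, which makes cysteine from cystathionine, was at 8.66, 8.47 and 8.06 CPM with AML874 and 8.64, 8.38 and 8.37 CPM with SEL120-34A, against 5.93, 4.65 and 5.01 CPM with DMSO at 8 h, and at 7.39, 7.88 and 6.48 CPM with AML874 and 7.19, 7.55 and 7.07 CPM with SEL120-34A, against 5.76, 5.62 and 5.49 CPM with DMSO at 24 h. Every treated library was above every DMSO library at both times. The log2 fold changes were 0.70 ± 0.07 and 0.71 ± 0.07 with AML874 and SEL120-34A at 8 h (adjusted p = 1.03e-09 and 5.84e-10), and 0.37 ± 0.07 and 0.37 ± 0.07 at 24 h. PYCR1, the last enzyme of mitochondrial proline synthesis, was at 82.8, 83.9 and 88.8 CPM with AML874 and 71.4, 64.7 and 72.9 CPM with SEL120-34A, against 59.6, 62.6 and 57.1 CPM with DMSO at 8 h, and at 62.6, 62.1 and 63.0 CPM with AML874 and 67.9, 61.6 and 63.3 CPM with SEL120-34A, against 56.0, 54.2 and 52.0 CPM with DMSO at 24 h. Again no treated library overlapped DMSO, and the AML874 libraries at 8 h were the highest. It rose by 0.51 ± 0.04 under AML874 and 0.22 ± 0.04 under SEL120-34A at 8 h, and by 0.21 ± 0.04 and 0.25 ± 0.04 at 24 h. ALDH18A1, which catalyses the first step from glutamate to proline, was at 0.06 ± 0.03 with AML874 at 8 h (adjusted p = 0.049), a call that ended when any 1 library of either group was left out (adjusted p = 0.0882 to 0.394). With SEL120-34A at 8 h it fell, at -0.12 ± 0.03, and at 24 h it passed with neither compound.

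ASNS, the asparagine synthetase and a standard marker of ATF4 activity, and CBS, the first enzyme of transsulfuration, could not be read from the gene counts. ASNS lies on the same strand as an overlapping gene, ENSG00000284707, and CBS has a near-identical copy on chromosome 21, CBSL. Gene counts of this kind leave out reads that fit more than 1 gene or place. The RSEM expected counts, which share such reads out, were 17.8 to 35.5 times the gene counts for ASNS and 7.32 to 10.6 times for CBS, against 0.784 to 1.21 times for the other 36 genes. As gene counts ASNS was at 1.01, 1.12 and 1.16 CPM with AML874 and 1.02, 1.03 and 1.23 CPM with SEL120-34A, against 1.05, 0.732 and 0.686 CPM with DMSO at 8 h, and CBS at 1.32, 1.56 and 1.36 CPM with AML874 and 1.29, 1.49 and 1.46 CPM with SEL120-34A, against 1.10, 1.15 and 1.14 CPM with DMSO at 24 h, from 76 to 155 reads per library for ASNS and 122 to 246 for CBS. By these gene counts ASNS passed at 8 h, at 0.42 ± 0.16 with AML874 and 0.42 ± 0.16 with SEL120-34A (adjusted p = 0.0319 and 0.0289). On expected counts summed over the gene and its partner, ASNS averaged 34.0 ± 0.467 CPM with AML874 and 35.1 ± 1.64 CPM with SEL120-34A at 8 h, against 30.2 ± 1.73 CPM with DMSO (SD, n = 3 each). These sums rose by 0.17 ± 0.04 with AML874 and by 0.21 ± 0.04 with SEL120-34A at 8 h (edgeR quasi-likelihood, adjusted p = 0.00142 and 9.32e-05), and neither treated group overlapped DMSO. At 24 h the sum was at -0.05 ± 0.04 with AML874, which did not pass (95% interval -0.13 to 0.04), and rose by 0.14 ± 0.04 with SEL120-34A. The ASNS expected counts without the partner gave 0.02 ± 0.06 and 0.07 ± 0.06 at 8 h, neither of which passed (adjusted p = 0.824 and 0.371). At 8 h the partner itself had unscaled gene counts of 415, 326 and 282 with AML874 and 407, 355 and 373 with SEL120-34A, against 215, 276 and 240 with DMSO. Whether the summed rise at 8 h comes from ASNS or from its partner was not tested. The CBS sum rose by 0.47 ± 0.03 under AML874 and 0.19 ± 0.03 under SEL120-34A at 8 h, and by 0.31 ± 0.03 and 0.17 ± 0.03 at 24 h, while the gene counts of CBS passed at 24 h only (adjusted p = 0.0344 and 0.0428). The summed counts were chosen after the gene counts were seen.

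**Figure D3:**
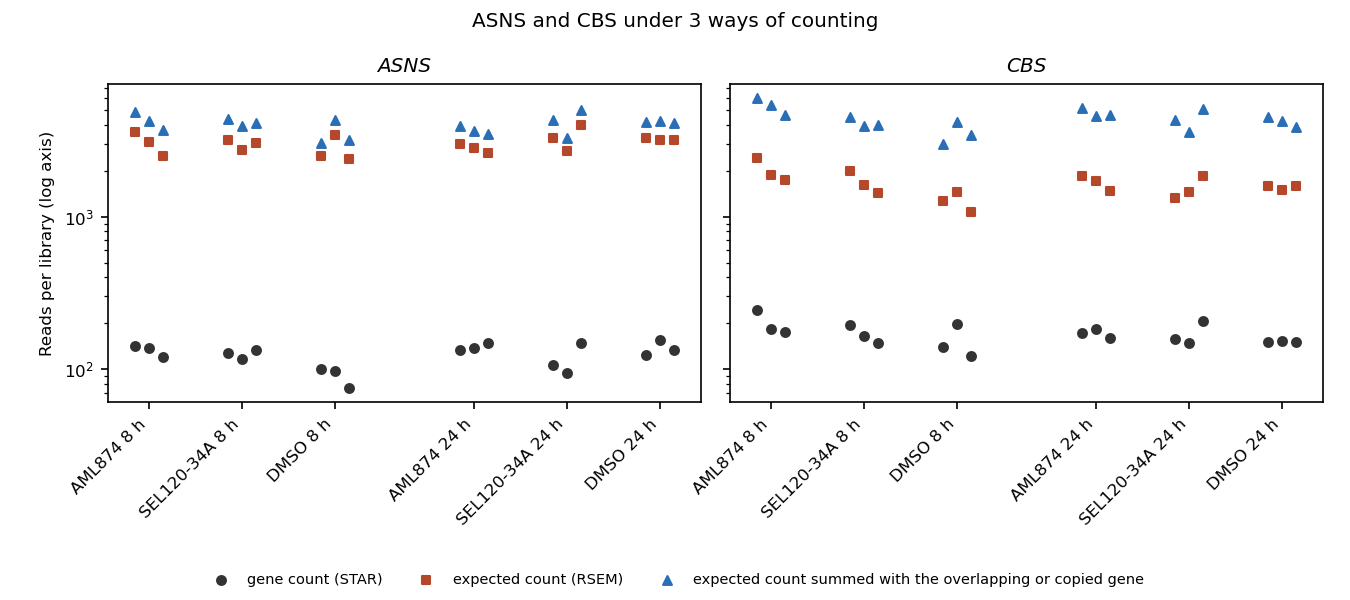
Reads per library on a log axis for ASNS (left) and CBS (right) in the 6 groups, as gene counts, RSEM expected counts and expected counts summed with the overlapping or copied gene. The gene counts lie far below both kinds of expected count in every library.

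The serine and one-carbon enzymes rose at 8 h with AML874 and split at 24 h. Of 7, 6 rose and 0 fell with AML874 at 8 h, 2 rose and 1 fell with SEL120-34A at 8 h, 2 rose and 4 fell with AML874 at 24 h, and 2 rose and 3 fell with SEL120-34A at 24 h. In that order 85.7%, 42.9%, 85.7% and 71.4% of the 7 changed, against 39.6%, 45.1%, 46.8% and 37.7% of all tested genes. The share with SEL120-34A at 8 h was thus near the background. Without replicate 3 of DMSO, and likewise with the HIF mean as a covariate, 3 of 7 rose with AML874 at 8 h. With library totals in place of TMM scaling, 6 rose and 1 fell with SEL120-34A at 8 h. PSPH, which makes serine from phosphoserine, and ALDH1L2, which oxidises formyl-tetrahydrofolate in mitochondria, rose in all 4 comparisons. PSPH was at 33.8, 35.3 and 36.4 CPM with AML874 and 34.1, 32.6 and 34.7 CPM with SEL120-34A, against 28.6, 28.9 and 26.7 CPM with DMSO at 8 h, and at 34.7, 36.0 and 35.0 CPM with AML874 and 34.2, 34.2 and 35.5 CPM with SEL120-34A, against 29.1, 27.6 and 26.5 CPM with DMSO at 24 h. ALDH1L2 was at 112, 114 and 109 CPM with AML874 and 87.2, 89.9 and 89.8 CPM with SEL120-34A, against 80.9, 78.8 and 78.5 CPM with DMSO at 8 h, and at 85.3, 92.5 and 95.5 CPM with AML874 and 92.2, 88.6 and 93.5 CPM with SEL120-34A, against 75.5, 79.9 and 77.6 CPM with DMSO at 24 h. In both genes the treated libraries lay above DMSO throughout, and for ALDH1L2 the AML874 libraries at 8 h stood clear of all others. The log2 fold changes of PSPH were 0.32 ± 0.04 and 0.27 ± 0.04 with AML874 and SEL120-34A at 8 h, and 0.35 ± 0.04 and 0.32 ± 0.04 at 24 h (largest adjusted p = 7.23e-07). Those of ALDH1L2 were 0.49 ± 0.03 and 0.16 ± 0.03 at 8 h, and 0.23 ± 0.03 and 0.24 ± 0.03 at 24 h (largest adjusted p = 8.23e-05).

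The folate enzymes of the mitochondrial pathway moved differently. MTHFD1L, which releases formate, was at 134, 132 and 136 CPM with AML874 and 107, 103 and 104 CPM with SEL120-34A, against 124, 127 and 122 CPM with DMSO at 8 h. The AML874 libraries lay above DMSO and the SEL120-34A libraries below. At 24 h it was at 90.1, 98.4 and 98.5 CPM with AML874 and 99.0, 90.2 and 98.5 CPM with SEL120-34A, against 103, 109 and 102 CPM with DMSO, with both treated groups below DMSO. It changed by 0.11 ± 0.03 under AML874 and -0.25 ± 0.03 under SEL120-34A at 8 h, and was at -0.13 ± 0.03 and -0.13 ± 0.03 at 24 h. The AML874 rise (adjusted p = 0.00947) was lost without replicate 1 or 3 of AML874 (adjusted p = 0.056 and 0.0777), or replicate 1 or 3 of DMSO (adjusted p = 0.0645 and 0.0903).

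SHMT2, which splits serine into glycine and a one-carbon unit, was at 307, 308 and 316 CPM with AML874 and 280.1, 272 and 277 CPM with SEL120-34A, against 280.3, 279.6 and 276 CPM with DMSO at 8 h. The AML874 libraries were above DMSO and the SEL120-34A libraries overlapped DMSO. MTHFD2, the next enzyme of that pathway, was at 185, 195 and 187 CPM with AML874 and 208, 195 and 210.4 CPM with SEL120-34A, against 217, 217 and 214 CPM with DMSO at 24 h, with all treated libraries below DMSO. SHMT2 had 0.15 ± 0.02 under AML874 and -0.01 ± 0.02 under SEL120-34A at 8 h, the second not passing, and -0.08 and -0.11 at 24 h. MTHFD2 had 0.07 ± 0.03 under AML874 and 0.00 ± 0.03 under SEL120-34A at 8 h, the second not passing, and fell at 24 h, at -0.19 ± 0.03 and -0.08 ± 0.03, the second lost without replicate 2 of SEL120-34A (adjusted p = 0.193). PSAT1, which feeds PSPH, rose with AML874 at 8 h (0.12 ± 0.03) and fell with it at 24 h (-0.17 ± 0.03), and passed at neither time with SEL120-34A (0.05 and 0.05). PHGDH, the first enzyme of serine synthesis, passed in none of the 4 comparisons, with log2 fold changes between -0.06 and 0.06 and every 95% interval within -0.12 and 0.12.

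The amino acid transporters mostly fell in each comparison. Of 7, 4 fell and 1 rose with AML874 at 8 h, 6 fell and 1 rose with SEL120-34A at 8 h, all 7 fell with AML874 at 24 h, and 6 fell and 1 rose with SEL120-34A at 24 h. In that order 71.4%, 100%, 100% and 100% of the 7 changed, against 39.6%, 45.1%, 46.8% and 37.7% of all tested genes. Without replicate 1 of AML874, replicate 1 of DMSO or replicate 2 of DMSO, 2 fell with AML874 at 8 h, since SLC7A5 and SLC3A2 no longer passed (adjusted p = 0.054 to 0.0759), and 2 fell likewise with library totals alone. SLC7A11, which imports cystine in exchange for glutamate (ENSG00000151012.13, GRCh38 chromosome 4, 138164097 to 138242349), turned round between the times. At 8 h it was at 9.66, 9.38 and 9.08 CPM with AML874 and 6.88, 7.72 and 7.14 CPM with SEL120-34A, against 7.58, 8.58 and 8.32 CPM with DMSO, the AML874 libraries above DMSO and the SEL120-34A libraries overlapping it. At 24 h it was at 4.62, 4.45 and 5.06 CPM with AML874 and 7.35, 6.19 and 6.24 CPM with SEL120-34A, against 7.42, 8.04 and 8.10 CPM with DMSO. The AML874 libraries were lowest, the SEL120-34A libraries came next, and no group overlapped another. It rose by 0.20 ± 0.07 with AML874 at the earlier time (adjusted p = 0.0187) and had -0.74 ± 0.07 at 24 h (adjusted p = 1.12e-10). The 8 h rise was lost without replicate 1 or 2 of AML874 (adjusted p = 0.118 and 0.0678), or replicate 1 or 3 of DMSO (adjusted p = 0.176 and 0.05). With SEL120-34A it had -0.17 ± 0.07 at 8 h (adjusted p = 0.0389), lost when replicate 2 or 3 of DMSO was left out (adjusted p = 0.149 and 0.0705) or replicate 1 or 3 of SEL120-34A (adjusted p = 0.14 and 0.0782), and -0.25 ± 0.07 at 24 h.

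SLC7A5 and SLC3A2 form the heterodimer LAT1 and CD98, which imports leucine and other large neutral amino acids, and SLC3A2 is also the partner of SLC7A11. SLC7A5 was at 465, 472 and 478 CPM with AML874 and 426, 384 and 437 CPM with SEL120-34A, against 539.6, 549 and 505 CPM with DMSO at 8 h, and at 230.1, 237 and 249.8 CPM with AML874 and 319.8, 275 and 304 CPM with SEL120-34A, against 386, 404 and 380.1 CPM with DMSO at 24 h. SLC3A2 was at 138, 138 and 141 CPM with AML874 and 131, 122 and 129 CPM with SEL120-34A, against 156, 158 and 144 CPM with DMSO at 8 h, and at 85.8, 92.2 and 97.2 CPM with AML874 and 108, 94.3 and 102 CPM with SEL120-34A, against 120.1, 123 and 118 CPM with DMSO at 24 h. Neither gene had an overlap between a treated group and DMSO at either time. The log2 fold changes of SLC7A5 were -0.17 ± 0.06 under AML874 and -0.35 ± 0.06 under SEL120-34A at 8 h, and -0.71 ± 0.06 and -0.38 ± 0.06 at 24 h (adjusted p = 2.26e-07 and 0.00015). Those of SLC3A2 were -0.14 ± 0.05 and -0.26 ± 0.05 at 8 h, and -0.39 ± 0.05 and -0.25 ± 0.05 at 24 h.

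The glutamine and alanine carriers SLC1A5 and SLC38A2 fell in all 4 comparisons. SLC1A5 was at 357, 362 and 358 CPM with AML874 and 339.7, 322 and 340.2 CPM with SEL120-34A, against 442, 457 and 431 CPM with DMSO at 8 h, and at 226, 225 and 235 CPM with AML874 and 277, 251 and 263 CPM with SEL120-34A, against 319, 319 and 299 CPM with DMSO at 24 h. SLC38A2 was at 189.5, 186 and 183 CPM with AML874 and 196, 214 and 191 CPM with SEL120-34A, against 236, 234 and 250.0 CPM with DMSO at 8 h, and at 244, 238 and 236 CPM with AML874 and 278, 294 and 277 CPM with SEL120-34A, against 321, 302 and 305 CPM with DMSO at 24 h. All treated libraries were below DMSO of the same time. SLC1A5 had -0.31 ± 0.03 under AML874 and -0.41 ± 0.03 under SEL120-34A at 8 h, and -0.45 ± 0.03 and -0.24 ± 0.03 at 24 h. SLC38A2 had -0.36 ± 0.03 and -0.26 ± 0.03 at 8 h, and -0.37 ± 0.03 and -0.13 ± 0.03 at 24 h. SLC7A1, the arginine and lysine carrier, was at 0.00 ± 0.03 with AML874 at 8 h and did not pass, and had -0.21 ± 0.03 with SEL120-34A at 8 h, -0.31 ± 0.03 with AML874 at 24 h and -0.12 ± 0.03 with SEL120-34A at 24 h. SLC1A4, a carrier of serine and other small neutral amino acids, was the exception, since it rose with SEL120-34A at 8 h and 24 h (0.14 ± 0.03 and 0.12 ± 0.03). With AML874 it was at 0.02 ± 0.03 at 8 h, which did not pass, and at -0.07 ± 0.03 at 24 h (adjusted p = 0.0404), a call lost without replicate 1 of AML874 (adjusted p = 0.213) or replicate 2 of DMSO (adjusted p = 0.178).

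**Figure D4:**
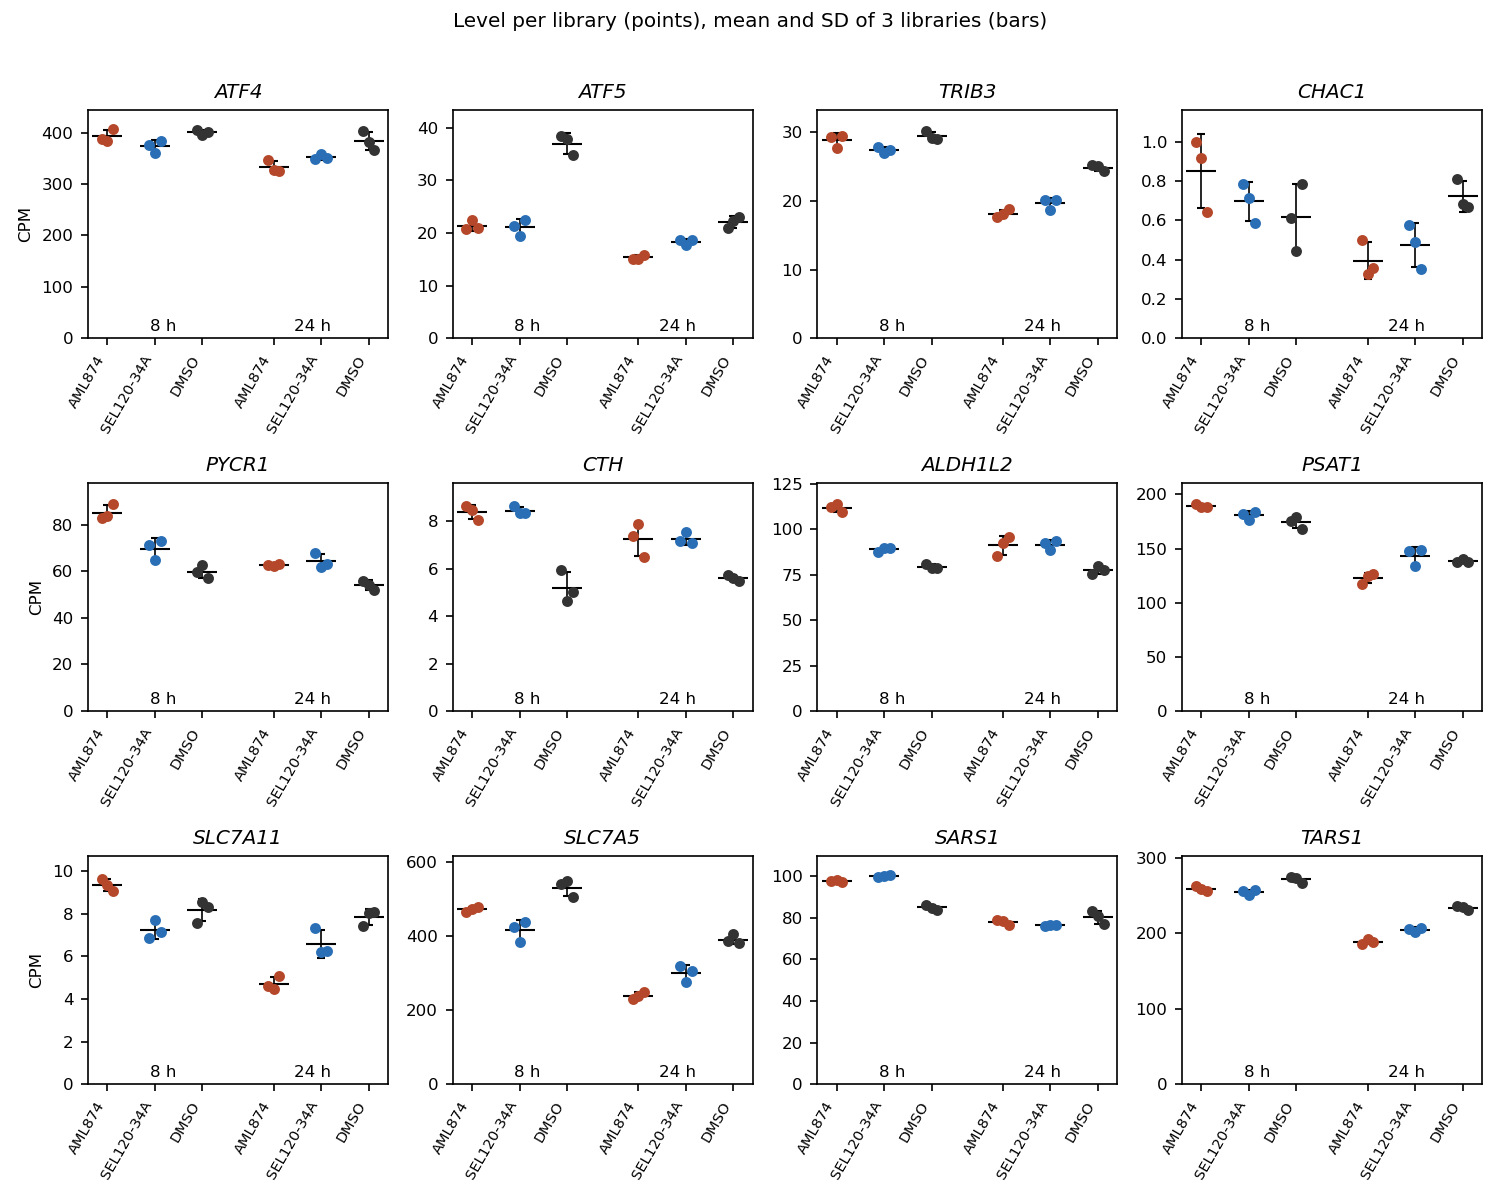
Level in CPM of 12 of the 38 genes, 1 point per library, with the mean and SD of 3 libraries as bars, for AML874, SEL120-34A and DMSO at 8 h (left of each panel) and 24 h (right), each axis starting at 0. SLC7A11 is highest with AML874 at 8 h and lowest with AML874 at 24 h, while CTH is above DMSO in all 4 treated groups.

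The cytosolic tRNA synthetases, which attach amino acids to their tRNAs, rose with AML874 at 8 h and mostly fell with it at 24 h. Of 11, 8 rose and 1 fell with AML874 at 8 h, 2 rose and 3 fell with SEL120-34A at 8 h, 2 rose and 6 fell with AML874 at 24 h, and 2 rose and 4 fell with SEL120-34A at 24 h. In that order 81.8%, 45.5%, 72.7% and 54.5% of the 11 changed, against 39.6%, 45.1%, 46.8% and 37.7% of all tested genes. The share with SEL120-34A at 8 h was thus near the background. No change exceeded -0.31 or 0.23 on the log2 scale. Without replicate 3 of DMSO 5 rose and 2 fell with AML874 at 8 h, and with the HIF mean as a covariate 4 rose and 3 fell. With library totals alone 4 rose and 1 fell with SEL120-34A at 8 h.

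SARS1, the seryl synthetase, was at 97.7, 98.1 and 97.3 CPM with AML874 and 99.5, 99.9 and 100.4 CPM with SEL120-34A, against 86.2, 84.8 and 83.9 CPM with DMSO at 8 h. Both treated groups lay above DMSO. YARS1, the tyrosyl synthetase, was at 297, 301 and 299 CPM with AML874 and 269.9, 262 and 272 CPM with SEL120-34A, against 270.3, 277 and 257 CPM with DMSO at 8 h, and at 198, 212 and 213 CPM with AML874 and 209, 193 and 205 CPM with SEL120-34A, against 231, 235 and 228 CPM with DMSO at 24 h. At 8 h the AML874 libraries alone were above DMSO, and at 24 h both treated groups were below it. SARS1 rose by 0.20 ± 0.03 under AML874 and 0.23 ± 0.03 under SEL120-34A at 8 h, and YARS1 by 0.16 ± 0.03 with AML874. At 24 h YARS1 fell, at -0.16 ± 0.03 with AML874 and -0.19 ± 0.03 with SEL120-34A. SARS1 at 24 h was at 76.3, 76.5 and 76.5 CPM with SEL120-34A, all below the 83.3, 80.7 and 76.8 CPM with DMSO, and the AML874 libraries overlapped DMSO.

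AARS1, the alanyl synthetase, rose in all 4 comparisons. It was at 214, 216 and 215 CPM with AML874 and 218, 218 and 222 CPM with SEL120-34A, against 193, 197 and 189 CPM with DMSO at 8 h, and at 176, 182 and 188 CPM with AML874 and 193, 183 and 187 CPM with SEL120-34A, against 173, 172 and 162 CPM with DMSO at 24 h, and each treated library exceeded each DMSO library of its time. The rises were 0.16 ± 0.03 under AML874 and 0.18 ± 0.03 under SEL120-34A at 8 h, and 0.11 ± 0.03 and 0.16 ± 0.03 at 24 h (largest adjusted p = 0.00126). TARS1, the threonyl synthetase, was the reverse, falling in all 4. It was at 186, 192 and 189 CPM with AML874 and 206, 202 and 208 CPM with SEL120-34A, against 236, 235 and 232 CPM with DMSO at 24 h, with no overlap. Its log2 fold changes were -0.07 ± 0.02 under AML874 and -0.09 ± 0.02 under SEL120-34A at 8 h, and -0.31 ± 0.02 and -0.19 ± 0.02 at 24 h. The 2 small falls at 8 h did not pass with library totals alone (adjusted p = 0.472 and 0.345).

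IARS1, the isoleucyl synthetase, was at 379, 375 and 366 CPM with AML874 and 312, 309 and 313 CPM with SEL120-34A, against 347, 356 and 336 CPM with DMSO at 8 h, so that the compounds lay on opposite sides of DMSO (0.11 ± 0.03 with AML874 and -0.15 ± 0.03 with SEL120-34A). It passed with neither at 24 h. MARS1 and GARS1, the methionyl and glycyl synthetases, fell with AML874 alone at 24 h. MARS1 was at 143, 154 and 161 CPM with AML874 and 183, 167 and 176 CPM with SEL120-34A, against 177, 185 and 179 CPM with DMSO, and GARS1 at 154, 163 and 165 CPM with AML874 and 184, 168 and 181 CPM with SEL120-34A, against 178, 184 and 178 CPM with DMSO. In both genes only the AML874 libraries were clear of DMSO. The falls were -0.24 ± 0.04 and -0.16 ± 0.03 with AML874, and with SEL120-34A the values were -0.04 ± 0.04 and -0.02 ± 0.03, neither of which passed. WARS1, the tryptophanyl synthetase, rose with AML874 at 8 h and with both compounds at 24 h, by 0.10, 0.12 and 0.13. CARS1, EPRS1 and NARS1, for cysteine, for glutamate and proline, and for asparagine, stayed within -0.16 and 0.09, but some groups were clear of DMSO. With AML874 at 8 h EPRS1 was at 316.3 to 328.7 CPM, against 301.8 to 307.0 CPM, and NARS1 at 263.8 to 270.5 CPM, against 244.0 to 255.3 CPM. EPRS1 was at 281.3 to 295.5 CPM with SEL120-34A at 8 h. At 24 h CARS1 and NARS1 lay below DMSO with AML874, and CARS1 with SEL120-34A.

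Between the compounds, AML874 was higher than SEL120-34A in 17 of the 38 genes and lower in 2 at 8 h, where 31.2% of all tested genes differed (16.0% higher and 15.2% lower). By 24 h it was higher in 0 (2 at an unadjusted p under 0.05, 0 by DESeq2, and 1 among genes with 1 CPM in 3 libraries) and lower in 15, where 19.6% of all tested genes differed (8.00% higher and 11.6% lower). No dose is known for either compound, and 38 genes were compared at each time with p-values adjusted over all 20920. Without replicate 2 of SEL120-34A at 8 h, 11 were higher and 1 lower, and with library totals alone 12 were higher and 2 lower. Among genes with 1 CPM in 3 libraries 19 of 37 members differed at 8 h, 17 higher and 2 lower, against 46.3% of those genes. That 8 h share is near the background. At 24 h 15 of the 37 differed, against 30.5%.

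At 8 h the genes higher with AML874 were 6 of 11 synthetases, 4 of 7 serine and one-carbon enzymes, 4 of 7 transporters, 2 of 5 of the remaining enzymes and 1 of 8 regulators. Without replicate 2 of SEL120-34A they were 3 synthetases and 2 transporters, and with library totals alone 3 synthetases. SLC7A11, at 0.37 ± 0.07, MTHFD1L, at 0.36 ± 0.03, ALDH1L2, at 0.33 ± 0.03, PYCR1, at 0.29 ± 0.04, and IARS1, at 0.26 ± 0.03, were the 5 genes furthest above SEL120-34A (largest edgeR quasi-likelihood adjusted p = 5.25e-05). SLC1A4 and SLC38A2 were lower with AML874, at -0.12 ± 0.03 and -0.10 ± 0.03, the second lost without replicate 2 of SEL120-34A (adjusted p = 0.206) or replicate 2 or 3 of AML874 (adjusted p = 0.0687 and 0.104). At 24 h the transporters stood out: 6 of 7 were lower with AML874 than with SEL120-34A, led by SLC7A11 at -0.49 ± 0.07 (adjusted p = 6.27e-06) and SLC7A5 at -0.33 ± 0.06. SLC3A2, the seventh, was at -0.15 ± 0.05 and did not pass (adjusted p = 0.0521). ATF5 (-0.26 ± 0.05), PSAT1 (-0.22 ± 0.03), MARS1 (-0.20 ± 0.04) and GARS1 (-0.14 ± 0.03) were also lower with AML874.

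Several members did not differ between the compounds past the threshold. For CTH the 95% interval of AML874 minus SEL120-34A on the log2 scale was -0.15 to 0.13 at 8 h and -0.15 to 0.14 at 24 h. For PSPH it was -0.02 to 0.14 and -0.05 to 0.10, for PHGDH -0.06 to 0.05 and -0.01 to 0.10, and for AARS1 -0.08 to 0.03 and -0.10 to 0.01. ATF4 was at 0.07 ± 0.03 at 8 h and -0.08 ± 0.03 at 24 h, and passed at neither (adjusted p = 0.0669 and 0.0512). ATF5, which fell most at 8 h, had an 8 h interval of -0.08 to 0.12.

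**Figure D5:**
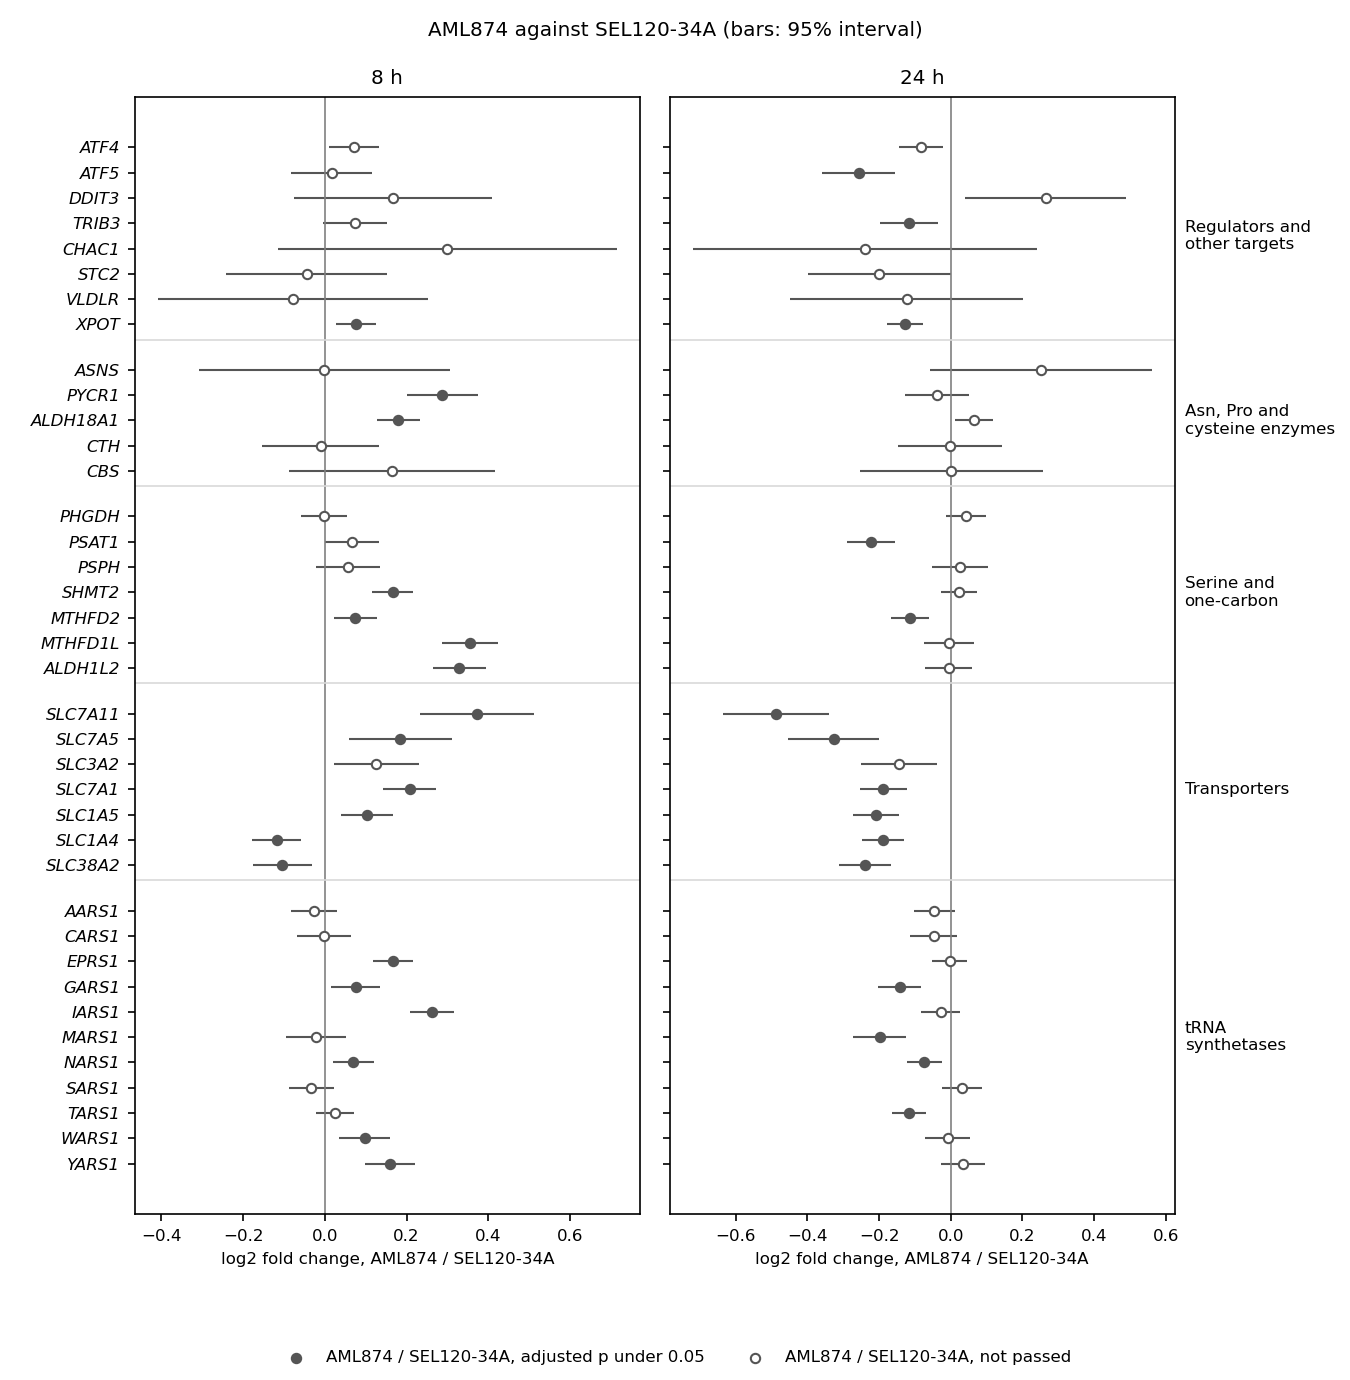
Log2 fold change of AML874 over SEL120-34A for each of the 38 genes at 8 h (left) and 24 h (right), with 95% intervals and filled points for adjusted p under 0.05. At 24 h SLC7A11 lies furthest left, at -0.49, and every filled point is left of 0.

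Time in DMSO alone also moved these genes. At 24 h against 8 h, 23 of the 38 fell and 2 rose, where 42.5% of all tested genes changed (22.7% fell and 19.8% rose), and the median was -0.14. Among genes with 1 CPM in 3 libraries 25 of 37 members changed, against 61.3% of those genes. The share that changed is thus near that background, while 23 of the 25 fell. Of the synthetases 9 of 11 fell and 0 rose, of the transporters 5 of 7 fell and 1 rose, of the serine and one-carbon enzymes 5 of 7 fell, of the regulators 2 of 8 fell and 1 rose, and of the asparagine, proline and cysteine enzymes 2 of 5 fell. ATF5 was at 20.9, 22.3 and 23.0 CPM at 24 h, against 38.5, 37.9 and 34.8 CPM at 8 h, a change of -0.75 ± 0.05. SLC1A5 was at 319, 319 and 299 CPM at 24 h, against 442, 457 and 431 CPM at 8 h, a change of -0.50 ± 0.03, and SLC7A5 had -0.44 ± 0.06. In each the 24 h libraries lay below all 8 h libraries. SLC38A2 and VLDLR rose, SLC38A2 by 0.37 ± 0.03 and VLDLR by 0.51 ± 0.15 (adjusted p = 0.0128), the second lost without replicate 2 of DMSO at 8 h (adjusted p = 0.0577) or replicate 1 at 24 h (adjusted p = 0.0532). In DMSO the HIF target mean lay at 5.92 to 6.17 log2 CPM at 24 h, against 5.21 to 5.84 at 8 h. With that mean as a covariate 22 fell and 2 rose, VLDLR did not pass (adjusted p = 0.0866) and STC2 was at -0.17, against 0.06 ± 0.09 without the covariate. Both compounds at 24 h were set against DMSO of 24 h, which holds this drift.

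The effect of AML874 was lower at 24 h than at 8 h in 24 of the 38 genes and higher in 1, ATF5, where 23.6% of all tested genes differed between the times (12.5% lower and 11.1% higher). The difference between the log2 effects was -0.94 ± 0.10 for SLC7A11 (edgeR quasi-likelihood interaction, adjusted p = 5.18e-09), -1.36 ± 0.30 for CHAC1, -0.54 ± 0.08 for SLC7A5, -0.42 ± 0.05 for TRIB3 and -0.32 ± 0.04 for YARS1. By role, 8 of 11 synthetases, 5 of 7 transporters, 5 of 7 serine and one-carbon enzymes, 4 of 8 regulators and 2 of 5 of the remaining enzymes were lower at 24 h. For SEL120-34A the effect was lower at 24 h in 8 genes and higher in 5, where 27.3% of all tested genes differed (13.0% lower and 14.2% higher). Among genes with 1 CPM in 3 libraries 15 of 37 members differed, against 41.3% of those genes, so this count is near the background. The balance of directions depended on the scaling: with library totals alone 15 were lower and 1 higher. SARS1 had the largest fall in effect among synthetases, -0.30 ± 0.04, and ATF5 the largest rise, 0.54 ± 0.07. ATF5 also fell in DMSO between the times, and the DMSO libraries enter this value.

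The rest of the pathway was read from lists fixed by symbol. Among 17 genes of the eIF2 kinases and the eIF2 machinery, 5 rose and 5 fell with AML874 at 8 h, 3 and 7 with SEL120-34A at 8 h, 5 and 6 with AML874 at 24 h, and 4 and 6 with SEL120-34A at 24 h. In that order 58.8%, 58.8%, 64.7% and 58.8% of the list changed. IMPACT, an inhibitor of the amino acid sensor GCN2, rose in all 4 comparisons, by 0.39 ± 0.03 under AML874 and 0.32 ± 0.03 under SEL120-34A at 8 h, and by 0.27 ± 0.03 and 0.20 ± 0.03 at 24 h. EIF2B2, a subunit of the eIF2 exchange factor, rose at 8 h by 0.32 ± 0.04 with AML874 and 0.57 ± 0.04 with SEL120-34A. PPP1R15A, the stress-induced subunit that dephosphorylates eIF2, fell with AML874 at 8 h, at -0.52 ± 0.09 on the log2 scale. EIF2AK4, which encodes GCN2, fell with SEL120-34A at 8 h (-0.29 ± 0.03) and rose with AML874 at 24 h (0.15 ± 0.03). EIF2AK3, which encodes the kinase PERK, fell at 24 h with both compounds (-0.25 ± 0.04 and -0.14 ± 0.04).

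Of 23 other ATF4-linked genes, 21 were tested. Of these 6 rose and 3 fell with AML874 at 8 h, 6 and 5 with SEL120-34A at 8 h, 3 and 9 with AML874 at 24 h, and 3 and 9 with SEL120-34A at 24 h. In that order 42.9%, 52.4%, 57.1% and 57.1% of the 21 changed, against 39.6%, 45.1%, 46.8% and 37.7% of all tested genes. PCK2, the mitochondrial phosphoenolpyruvate carboxykinase, rose at 8 h to 86.4 ± 4.79 CPM with AML874 and 72.6 ± 2.03 CPM with SEL120-34A, against 57.1 ± 1.20 CPM with DMSO (SD, n = 3 each). TXNIP, which binds thioredoxin and restrains glucose uptake, averaged 70.2 ± 2.14 CPM under AML874 and 72.0 ± 1.75 CPM under SEL120-34A at 8 h, against 132 ± 9.86 CPM with DMSO, log2 fold changes of -0.92 ± 0.06 and -0.88 ± 0.06. JDP2, a bZIP repressor, fell at 24 h, at -0.77 ± 0.04 with AML874 and -0.53 ± 0.04 with SEL120-34A, and SLC38A1, a glutamine carrier, was at -0.39 ± 0.03 with SEL120-34A. NUPR1, a stress-induced chromatin protein, was 1 of the 3 that rose with AML874 at 24 h, at 1.71, 0.111 and 0.0425 CPM with AML874, against 0.0146, 0 and 0 CPM with DMSO. The high library is the one with epithelial transcripts, where EPCAM was at 0.425 CPM and KRT8 at 0.341 CPM.

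Folate, glycine and methionine genes outside the 38 numbered 18, of which 7 rose and 2 fell with AML874 at 8 h, 2 and 6 with SEL120-34A at 8 h, 5 and 2 with AML874 at 24 h, and 7 and 4 with SEL120-34A at 24 h. In that order 50%, 44.4%, 38.9% and 61.1% of them changed, against 39.6%, 45.1%, 46.8% and 37.7% of all tested genes. The shares with SEL120-34A at 8 h and with AML874 at 24 h were thus at or below the background. MAT2A, which makes S-adenosylmethionine, fell in all 4 comparisons, at -0.29 ± 0.05 under AML874 and -0.31 ± 0.05 under SEL120-34A at 8 h, and -0.34 ± 0.05 and -0.31 ± 0.05 at 24 h. GNMT, which uses up S-adenosylmethionine, was low but rose at 8 h to 0.649 ± 0.153 CPM with AML874 and 1.31 ± 0.171 CPM with SEL120-34A, against 0.267 ± 0.0437 CPM with DMSO. Of 12 other cytosolic synthetases and scaffold genes, 6 rose and 0 fell with AML874 at 8 h, 3 and 5 with SEL120-34A at 8 h, 6 and 1 with AML874 at 24 h, and 3 and 4 with SEL120-34A at 24 h. These were 50%, 66.7%, 58.3% and 58.3% of the 12. QARS1, the glutaminyl synthetase, rose at 24 h by 0.42 ± 0.02 with AML874 and 0.36 ± 0.02 with SEL120-34A, more than any of the 11 listed synthetases. Of 17 mitochondrial synthetases, 5 rose and 5 fell with AML874 at 8 h, 4 and 5 with SEL120-34A at 8 h, 7 and 1 with AML874 at 24 h, and 4 and 3 with SEL120-34A at 24 h. These were 58.8%, 52.9%, 47.1% and 41.2% of the 17, so that the 24 h shares were near the background. PARS2, the mitochondrial prolyl synthetase, rose by 0.40 ± 0.06 with AML874 at 8 h.

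The other arms of the unfolded protein response were read from 17 IRE1 and ATF6 targets. With AML874 at 8 h 10 rose and 2 fell, with SEL120-34A at 8 h 4 and 7, with AML874 at 24 h 6 and 5, and with SEL120-34A at 24 h 5 and 4. In that order 70.6%, 64.7%, 64.7% and 52.9% of the 17 changed, against 39.6%, 45.1%, 46.8% and 37.7% of all tested genes. HYOU1, a chaperone of the endoplasmic reticulum, rose at 8 h by 0.54 ± 0.03 with AML874 and 0.22 ± 0.03 with SEL120-34A. CALR, which encodes calreticulin, rose at 24 h by 0.41 ± 0.02 and 0.50 ± 0.02. HSPA5, which encodes the chaperone BiP, fell with SEL120-34A at 8 h (-0.28 ± 0.03) and with AML874 and SEL120-34A at 24 h (-0.36 ± 0.03 and -0.24 ± 0.03). Of the 23 tested HIF targets 0 rose in any comparison with DMSO, and 11 and 9 fell with AML874 and SEL120-34A at 8 h, and 10 and 8 at 24 h. These were 47.8%, 39.1%, 43.5% and 34.8% of the 23, above the share of all tested genes with AML874 at 8 h only. The part of the variation of the HIF targets in the changes of the 38 genes was not tested beyond the covariate values above.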

How the data were processed

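Polyadenylated RNA of OCI-AML1 cells was sequenced in 18 libraries, 3 in each of 6 groups taken from the sample titles. Per the submitters' processing notes, reads were aligned to GRCh38 with STAR 2.7.1a and quantified with RSEM 1.3.2, and the annotation release is not given in the sources used here. The authors deposited gene counts per library, with columns for unstranded, forward and reverse reads, and an RSEM table per library. Expected counts and TPM are as the authors deposited them. The reverse count column was used, since forward counts were 6.27 to 6.66% of it. The 4 summary lines of each file, which name no gene, held 21.9 to 25.5% of the reads and were left out. Reads with several alignments are not counted. A count of 0 allows up to 3 counts, or 0.0211 to 0.0303 CPM, for counting error only.

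Symbols were matched for 60340 of 60609 identifiers, and positions come from GENCODE release 29 on GRCh38. The filter filterByExpr left 20920 genes. Counts were scaled by TMM and 1 robust quasi-likelihood model of the 6 groups was fitted (edgeR 4.0.16, R 4.3.3). It left 12 residual degrees of freedom. The threshold was 0.05 on Benjamini-Hochberg adjusted p-values over all tested genes. The SE is the log2 fold change divided by the root of the F statistic. CPM values are TMM-scaled. The exceptions are the cell type marker sums, the values of CD247, NKG7 and CD79A, the count of markers at 1 CPM and the limits for counting error, which use library totals. The model was also run on simulated counts with the same spread for all genes and changes planted in few genes of a single group. That setting is simpler than these data and gives no error rate for them. The members and lists were chosen with earlier results of these data known. Values per library are given for ATF4 and, per role and comparison with DMSO, for up to 3 called members with the largest change, and up to 3 called genes of each further list are named, of which 1 is not reported here. TRIB3 and NUPR1 were added after their values were seen. CARE sites are printed for the 6 members with the core and the largest change with AML874 at 24 h.

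Other scalings tried were DESeq2's size factors and library totals alone. Other tests were DESeq2 1.42.0 and limma-voom (limma 3.58.1). A filter of 1 CPM in 3 libraries, no filter, a block for the replicate number and a fit of only the groups compared were also tried. Further inputs were unstranded counts and RSEM expected counts rounded to whole numbers. The last alternatives were the mean of the HIF targets as a covariate and leaving out each library in turn. Expected counts of ASNS and CBS summed with the overlapping or copied gene were added after the data were seen. Python 3.11.15 with numpy 2.4.6 and pandas 2.3.3 prepared the tables, and matplotlib 3.10.9 the figures. Promoter windows are from RefSeq.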

Additional observations from a re-analysis of the deposited data

Results flagged for a closer look

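For 25 of the 38 genes the effect of AML874 at 24 h differed from its effect at 8 h by the interaction test (edgeR quasi-likelihood, adjusted p under 0.05 over all genes tested). Of all tested genes 23.6% differed. Among genes with 1 CPM in 3 libraries 24 of 37 members differed, against 36.6% of those genes. The difference of the log2 effects, 24 h minus 8 h, was above 0 in ATF5 at 0.27. Among the other regulators it was -0.18 in ATF4, -0.42 in TRIB3, -1.36 in CHAC1 and -0.50 in STC2. In the enzymes it was -0.30 in PYCR1, -0.33 in CTH, -0.29 in PSAT1, -0.24 in SHMT2, -0.27 in MTHFD2, -0.24 in MTHFD1L and -0.26 in ALDH1L2. The transporters had -0.94 in SLC7A11, -0.54 in SLC7A5, -0.25 in SLC3A2, -0.31 in SLC7A1 and -0.15 in SLC1A5. In the synthetases it was -0.11 in EPRS1, -0.27 in GARS1, -0.14 in IARS1, -0.21 in MARS1, -0.18 in NARS1, -0.24 in SARS1, -0.24 in TARS1 and -0.32 in YARS1.

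For SEL120-34A 13 genes differed between the times by the same test, where 27.3% of all tested genes differed. Among genes with 1 CPM in 3 libraries 15 of 37 members differed, against 41.3% of those genes, so this count is near the background. With library totals alone 15 were lower at 24 h and 1 higher. The difference was above 0 in ATF5 at 0.54, XPOT at 0.15, SLC1A5 at 0.17, IARS1 at 0.15 and WARS1 at 0.12. It was below 0 in TRIB3 at -0.23, CHAC1 at -0.82, CTH at -0.34, PHGDH at -0.13, SHMT2 at -0.10, SARS1 at -0.30, TARS1 at -0.10 and YARS1 at -0.19. The DMSO libraries of both times enter every one of these values, for both compounds.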

How the results depend on the processing

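The number of the 38 genes called stayed within 1.5 times its value in all comparisons and alternatives, except for AML874 against SEL120-34A at 8 h, where 19 became 12 without replicate 2 of SEL120-34A. These totals do not show direction. With library totals alone the effect of SEL120-34A was lower at 24 h in 15 genes and higher in 1, against 8 and 5. Leaving out each library in turn gave 19 to 23 for AML874 and 22 to 24 for SEL120-34A against DMSO at 8 h, 29 to 31 and 24 to 27 at 24 h, 12 to 17 and 13 to 16 for AML874 against SEL120-34A at 8 h and 24 h, 22 to 27 for DMSO at 24 h against 8 h, and 23 to 26 and 11 to 15 for the differences of effects of AML874 and SEL120-34A. The labels do not say whether the replicate numbers pair the libraries. After group means were taken off, same-numbered libraries had correlations of -0.335 to 0.352 with a median of 0. Libraries of different number had -0.336 to 0.405 with a median of 0.004. Whether libraries of the same number shared a culture or day was not tested. With a replicate block 18 members rose and 7 fell with AML874 at 8 h, 8 and 16 with SEL120-34A at 8 h, 7 and 23 with AML874 at 24 h, and 8 and 19 with SEL120-34A at 24 h, and 6 of 342 single values lost their call. Values that turned round and passed were, with the HIF mean as a covariate, STC2 at 0.13 and VLDLR at 0.14 with AML874 at 8 h, STC2 at 0.10 with SEL120-34A at 8 h and STC2 at -0.17 in DMSO at 24 h against 8 h. With library totals alone they were SHMT2 at 0.0537 and MTHFD2 at 0.0657 with SEL120-34A at 8 h. With expected counts ASNS was at 0.18 with SEL120-34A at 24 h and -0.25 for AML874 against SEL120-34A at 24 h, and with the summed expected counts ASNS was at 0.14 and -0.18 in those comparisons and CBS at -0.16 for the effect of AML874 at 24 h minus 8 h. For ASNS and CBS these fits counted other reads than the main fit, and the cause was not tested for any of these values. Members near 1 CPM (CHAC1, and ASNS and CBS as gene counts) have the widest intervals.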
